A study of Mus musculus with 12 samples.

Results

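The semaphorins, netrins and Slits, with their plexin, neuropilin, Dcc, Unc5 and Robo receptors, were followed in granule cell progenitors, which divide in the external layer of the young cerebellum before they become granule neurons. Members were the probe sets whose only gene symbol in the platform annotation was a semaphorin, plexin, neuropilin (Nrp1, Nrp2), netrin or netrin-G, Unc5a to Unc5d, Dcc, Neo1, Slit1 to Slit3 or Robo1 to Robo4. That gave 118 probe sets for 51 genes, of 45101 probe sets and 18194 genes on the array, and each gene was represented by its brightest probe set, by the average of all 12 arrays. The 51 were 7 class 3 semaphorins, 13 membrane semaphorins, 10 plexin entries, 2 neuropilins, 6 netrins, 6 netrin receptors, 3 Slits and 4 Robos. Of the plexin entries, Plxna4os1 is a transcript named for the strand opposite Plxna4 and is not a receptor.

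Progenitors came from mice at postnatal day 8 on a mixed C57BL/6 and Swiss Webster background, and were enriched on a Percoll density gradient. SmoM2 mice carried Atoh1-CreER and R26LSL-SmoM2-YFP, so that 200 µg of tamoxifen per g at postnatal day 2 switched on a constitutively active Smoothened fused to YFP in cells of the Atoh1 lineage. The 4 groups were SmoM2 hemisphere, WT hemisphere, SmoM2 vermis and WT vermis (WT, wild type), with 3 arrays each and 5 mice pooled per replicate. Neither the genotype of the WT mice at the Cre and Rosa26 loci nor whether they received tamoxifen is given in the sources used here, so the allele, the Cre and the drug cannot be told apart. Values are log2 expression per probe set from RMA, a method that subtracts background, equalises the distributions of the arrays and summarises the probes of a set.

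Semaphorins are secreted or membrane-bound cues that act through plexins, and most class 3 members need a neuropilin as co-receptor. Netrins attract growing axons and migrating cells through Dcc and repel them through Unc5 receptors, while Slits mostly repel through Robo receptors. In the cerebellum, Sema6a and Plxna2 act in the inward migration of young granule cells, and mouse mutants of Unc5c have granule cells beyond the normal border of the cerebellum.

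Hedgehog targets followed the genotype labels. Gli1 was at 8.81 ± 0.10 in SmoM2 hemisphere and 7.13 ± 0.29 in WT hemisphere (log2, SD, n = 3 each), and Ptch1 at 12.35 ± 0.04 in SmoM2 hemisphere and 10.66 ± 0.17 in WT hemisphere. The 12 array medians lay between 4.81 and 4.87, the lower quartiles between 3.24 and 3.42 and the upper quartiles between 6.90 and 7.10. Within a group, pairs of arrays had correlations of 0.988 to 0.996. Of 57 measured markers of progenitors and other cells, 4 rose and 23 fell in SmoM2 hemisphere, where 7.62% of all genes rose and 7.18% fell. In SmoM2 vermis 4 rose and 28 fell, where 7.56% of all genes rose and 9.46% fell. The progenitor marker Atoh1 was above the upper quartile of every array. Of 7 progenitor markers, Atoh1 and Gli1 rose in both regions, Pax6 and Mfap4 fell in both, Barhl1 fell in the hemisphere, and Zic1 and Zic2 did not pass. The progenitor sum on the linear scale was 10321 to 11126 in SmoM2 hemisphere, against 12250 to 14073 in WT hemisphere, and 10747 to 11240 in SmoM2 vermis, against 11809 to 13436 in WT vermis. Zic1, which did not pass, lay between 12.67 and 13.10 on the 12 arrays and made up the largest part of that sum. Markers of other cells were present and many were lower in SmoM2. The summed level of 7 markers of differentiating granule neurons was 8873 to 9727 in SmoM2 hemisphere, against 15274 to 17514 in WT hemisphere, and 9085 to 9647 in SmoM2 vermis, against 15015 to 16758 in WT vermis. For 6 oligodendrocyte lineage markers the sums were 2395 to 3487 in SmoM2 hemisphere, against 5625 to 7172 in WT hemisphere, and 2325 to 3667 in SmoM2 vermis, against 6692 to 9327 in WT vermis. SmoM2 hemisphere had 4 of the 7 neuronal and 4 of the 6 oligodendrocyte genes significantly lower, and SmoM2 vermis 5 and 4. For 4 GABAergic interneuron markers the sums were 181 to 274 in SmoM2 hemisphere, against 374 to 520 in WT hemisphere, and 130 to 213 in SmoM2 vermis, against 437 to 561 in WT vermis. For 5 microglial markers they were 260 to 382 in SmoM2 hemisphere, against 577 to 673 in WT hemisphere, and 296 to 440 in SmoM2 vermis, against 661 to 723 in WT vermis. The part of these cells in the results below was not tested, and in such mixed samples fewer cells of a type and less RNA per cell cannot be told apart.

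Promoters are given for the 6 members whose difference between genotypes reached 0.8 in both regions; Sema3e, Ntng1 and Robo2 rose, and Sema3d, Unc5b and Unc5c fell. These are all the windows listed for these genes, 1 each and 3 for Robo2, 250 bases before to 50 after the annotated start (RefSeq, GRCm38.p6), written 5′ to 3′ on the gene's strand. Capitals mark CCACCC, the core of the GLI binding motif GACCACCCA, or the E-box CAGCTG, searched on both strands; GACCACCCA contains CCACCC.
Sema3e, chr5:14025026-14025325, plus strand: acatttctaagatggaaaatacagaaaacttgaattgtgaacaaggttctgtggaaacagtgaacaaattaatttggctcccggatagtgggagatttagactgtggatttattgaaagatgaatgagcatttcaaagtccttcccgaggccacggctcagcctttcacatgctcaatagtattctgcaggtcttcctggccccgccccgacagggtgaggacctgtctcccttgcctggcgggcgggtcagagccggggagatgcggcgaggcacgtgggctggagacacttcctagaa
Ntng1, chr3:110143423-110143722, minus strand: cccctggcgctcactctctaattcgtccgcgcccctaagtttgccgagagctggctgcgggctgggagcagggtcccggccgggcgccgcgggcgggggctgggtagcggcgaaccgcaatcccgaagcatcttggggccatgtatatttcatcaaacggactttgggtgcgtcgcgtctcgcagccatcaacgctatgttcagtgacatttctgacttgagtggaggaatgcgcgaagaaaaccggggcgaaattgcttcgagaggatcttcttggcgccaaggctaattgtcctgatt
Robo2, chr16:75447244-75447543, minus strand: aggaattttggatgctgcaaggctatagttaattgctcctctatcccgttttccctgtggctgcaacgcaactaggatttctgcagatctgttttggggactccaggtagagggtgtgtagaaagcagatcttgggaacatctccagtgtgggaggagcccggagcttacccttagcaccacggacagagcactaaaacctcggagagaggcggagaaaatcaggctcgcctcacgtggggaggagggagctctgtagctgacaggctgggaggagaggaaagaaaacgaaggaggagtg
Robo2, chr16:75092721-75093020, minus strand: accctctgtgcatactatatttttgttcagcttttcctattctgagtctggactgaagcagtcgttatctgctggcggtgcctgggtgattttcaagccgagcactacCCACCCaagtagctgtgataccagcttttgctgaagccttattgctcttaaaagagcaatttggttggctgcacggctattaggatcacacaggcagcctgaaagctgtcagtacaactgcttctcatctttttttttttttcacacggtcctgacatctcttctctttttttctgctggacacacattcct
Robo2, chr16:74411776-74412075, minus strand: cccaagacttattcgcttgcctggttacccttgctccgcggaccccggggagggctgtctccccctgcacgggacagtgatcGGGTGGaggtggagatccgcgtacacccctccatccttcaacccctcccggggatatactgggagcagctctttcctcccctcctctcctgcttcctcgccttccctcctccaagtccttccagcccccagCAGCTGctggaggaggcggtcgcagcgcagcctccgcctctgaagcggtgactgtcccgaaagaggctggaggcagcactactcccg
Sema3d, chr5:12382916-12383215, plus strand: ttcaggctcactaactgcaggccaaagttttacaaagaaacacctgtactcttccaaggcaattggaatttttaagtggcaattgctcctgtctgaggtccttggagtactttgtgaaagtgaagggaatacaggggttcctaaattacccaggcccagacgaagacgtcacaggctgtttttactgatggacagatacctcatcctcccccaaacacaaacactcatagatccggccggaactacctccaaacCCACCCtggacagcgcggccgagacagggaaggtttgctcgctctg
Unc5b, chr10:60831532-60831831, minus strand: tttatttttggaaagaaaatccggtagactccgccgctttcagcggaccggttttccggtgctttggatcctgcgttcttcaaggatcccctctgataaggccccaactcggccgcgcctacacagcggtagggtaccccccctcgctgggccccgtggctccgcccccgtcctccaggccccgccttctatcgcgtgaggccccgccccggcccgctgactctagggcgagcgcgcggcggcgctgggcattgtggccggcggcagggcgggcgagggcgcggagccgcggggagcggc
Unc5c, chr3:141465314-141465613, plus strand: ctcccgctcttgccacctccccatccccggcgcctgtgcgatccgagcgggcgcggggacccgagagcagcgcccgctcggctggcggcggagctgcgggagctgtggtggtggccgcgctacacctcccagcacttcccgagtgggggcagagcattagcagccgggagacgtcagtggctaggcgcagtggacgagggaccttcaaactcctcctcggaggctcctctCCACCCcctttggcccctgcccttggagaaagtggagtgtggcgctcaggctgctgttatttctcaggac
The windows of Sema3e, Ntng1 and Unc5b held none of the 3 motifs, and those of Sema3d and Unc5c held CCACCC once each. Of the 3 Robo2 windows, 1 held none, 1 held CCACCC and 1 held both CCACCC and CAGCTG, so that genes with and without CCACCC were among those that rose and those that fell. RefSeq windows were found for 41 of the 51 members, 54 windows in all. GACCACCCA was in 0 of the 54, against 0.253% of all 32851 windows. CCACCC was in 61.1% of member windows, against 31.5% of all windows, and CAGCTG in 16.7%, against 16.3%. Median GC content was 63.8% in member windows and 52.7% in all windows. These matches describe letters in short windows, not binding.

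In the hemisphere, 19 of the 51 guidance genes changed in SmoM2 progenitors, 7 higher and 12 lower (limma, Benjamini-Hochberg adjusted p under 0.05 over all 18194 genes). Groups did not overlap for 25 members in the hemisphere (8 higher, 17 lower), where 31.7% of all genes were so (13.4% higher, 18.3% lower). In the vermis this held for 28 members (8 higher, 20 lower), against 39.8% of all genes (17.3% higher, 22.5% lower). The 19 calls are 37.3% of members, where 14.8% of all genes passed, 7.62% higher and 7.18% lower. In the vermis 14 members changed, 4 higher and 10 lower, or 27.5%, where 17% of all genes passed, 7.56% higher and 9.46% lower. The hemisphere count was 12 without WT hemisphere replicate 2 and also 12 without SmoM2 hemisphere replicate 1. The median difference of the 51 members was -0.10 in hemisphere and -0.24 in vermis, against -0.05 and -0.06 over all genes. Both regions together gave 12 members that passed in the same direction, 23.5% of the 51 against 9.97% of all genes. Sema3e, Ntng1, Robo1 and Robo2 rose in both, and Sema3d, Sema5a, Sema5b, Sema6a, Plxnb3, Unc5b, Unc5c and Unc5d fell in both. A further 7 members passed in the hemisphere alone, 2 in the vermis alone, and 30 in neither. In at least 1 region 21 members passed, 41.2% of the 51, where 21.9% of all genes did. At an unadjusted p under 0.05 there were 23 members in the hemisphere, where 30.9% of all genes were so, and 26 in the vermis, where 33% were.

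**Figure D1:**
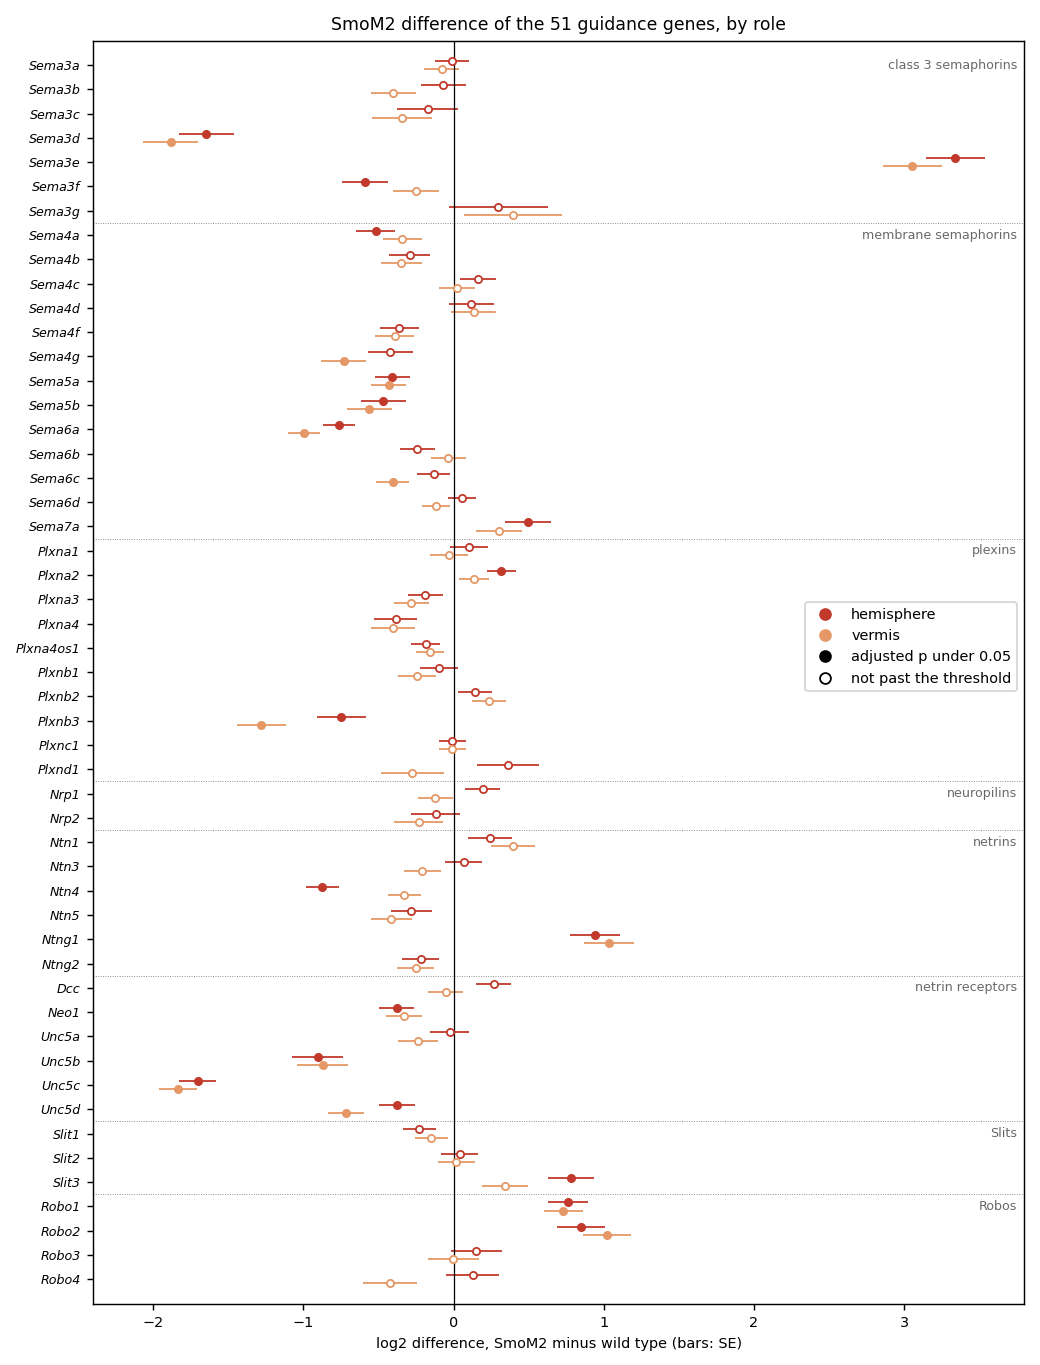
Log2 difference, SmoM2 minus WT, of the 51 guidance genes in the hemisphere (red) and the vermis (orange), ordered by role; bars are the SE from limma, and filled points passed at an adjusted p under 0.05. Sema3e lies apart on the right at 3.34 and 3.05, and Unc5c and Sema3d lie farthest to the left.

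Of the 7 secreted class 3 semaphorins, Sema3e rose and Sema3d fell in both regions, and Sema3f fell in the hemisphere. Sema3e binds Plxnd1 directly, without a neuropilin. Its probe set (1419717_at) read 7.06, 6.60 and 7.08 in SmoM2 hemisphere, against 4.10, 3.43 and 3.19 in WT hemisphere. The vermis values were 7.59, 7.32 and 7.58 in SmoM2, against 4.46, 4.55 and 4.31 in WT. All 6 SmoM2 arrays lay more than 2 log2 units above every WT array, so the groups did not overlap. The difference was 3.34 ± 0.20 in the hemisphere (SE; 10.1-fold, adjusted p = 7.68e-08) and 3.05 ± 0.20 in the vermis (8.30-fold, adjusted p = 1.53e-07). The WT hemisphere level was near the lower quartile of the arrays, and below it on 1.

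Sema3d, a secreted semaphorin that acts through neuropilins, went the other way. The hemisphere values were 5.36, 5.95 and 5.65 in SmoM2, against 7.42, 7.47 and 6.997 in WT. The vermis values were 5.53, 5.86 and 5.30 in SmoM2, against 7.32, 7.70 and 7.32 in WT. SmoM2 and WT arrays were separate in each region. The log2 difference was -1.65 in hemisphere (SE 0.18, adjusted p = 3.02e-05) and -1.88 in vermis (SE 0.18, adjusted p = 8.73e-06). In the RefSeq gene order of GRCm38.p6, Sema3d and Sema3a are next to each other on chromosome 5, and 3 coding genes separate Sema3a from Sema3e. The brightest probe set of Sema3a, which acts through Nrp1, lay between 5.90 and 6.29 on all 12 arrays. Its differences were -0.01 (hemisphere) and -0.08 (vermis). A dimmer Sema3a probe set (1449865_at) rose by 0.67 in SmoM2 vermis (adjusted p = 0.0452, every probe set tested). Its hemisphere difference of 0.26 did not pass. Probe set 1420417_at, with 0.42 (hemisphere) and 0.31 (vermis), passed in neither region.

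Sema3f, a ligand of Nrp2, averaged 7.56 ± 0.21 in SmoM2 hemisphere and 8.15 ± 0.26 in WT hemisphere, a difference of -0.59 (adjusted p = 0.0193). That call was lost without WT hemisphere replicate 2 or 3 or SmoM2 hemisphere replicate 2 or 3 (adjusted p = 0.0642 to 0.0822). In the vermis the difference was -0.25 and did not pass. Sema3b, Sema3c and Sema3g passed in neither region and ranged between 3.90 and 5.89. Sema3b passed in the vermis without WT hemisphere replicate 1 (-0.40, adjusted p = 0.0396) and Sema3c without WT vermis replicate 3 (-0.60, adjusted p = 0.0411). Sema3g, a ligand made by blood vessels, had 5.89 and 5.63 on both WT replicate 1 arrays, against 4.34 to 4.82 on the other WT arrays.

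Among 13 membrane semaphorins of classes 4 to 7, the hemisphere had 4 that fell and 1 that rose, the vermis 5 that fell and none that rose. Sema6a, a transmembrane ligand of Plxna2 and Plxna4, read 8.10, 8.23 and 8.13 in SmoM2 hemisphere, against 8.71, 9.07 and 8.97 in WT hemisphere. In vermis the values were 8.07, 7.93 and 8.01 in SmoM2, against 8.93, 8.95 and 9.11 in WT. No SmoM2 array reached the lowest WT array. Sema6a fell, with a difference of -0.76 in hemisphere (SE 0.11, adjusted p = 0.000296) and -0.996 in vermis (SE 0.11, adjusted p = 2.52e-05). The summed level of the differentiating granule neuron markers was lower in the same arrays, at most 9727 in SmoM2 and at least 15015 in WT, and their part in the Sema6a difference was not tested.

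Sema5a and Sema5b, membrane semaphorins with thrombospondin repeats, fell in both regions by smaller amounts. Sema5a differed by -0.41 in hemisphere (adjusted p = 0.0301) and -0.43 in vermis (adjusted p = 0.0211). Its hemisphere call was lost without WT hemisphere replicate 1 or 2 or SmoM2 hemisphere replicate 1 or 3 (0.0562 to 0.129), and its vermis call without WT vermis replicate 2 (0.0702) or SmoM2 vermis replicate 3 (0.0866). Sema5b differed by -0.47 in hemisphere (adjusted p = 0.0487) and -0.56 in vermis (adjusted p = 0.0201). The hemisphere call of Sema5b was lost on leaving out any 1 of the 6 WT arrays, any SmoM2 hemisphere array or SmoM2 vermis replicate 3 (0.0539 to 0.157). Its vermis call was lost without WT vermis replicate 1 (0.0506) or 3 (0.0654) or SmoM2 vermis replicate 2 (0.0931). Both genes therefore stood close to the threshold.

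Other membrane semaphorins passed in a single region. Sema4a, at 4.19 ± 0.01 in SmoM2 hemisphere and 4.71 ± 0.16 in WT hemisphere, fell by 0.52 (adjusted p = 0.0149). It did not pass without WT hemisphere replicate 2 (0.0582) or SmoM2 hemisphere replicate 1 (0.0503), and in the vermis it passed on leaving out WT vermis replicate 1 (-0.47, 0.0232). Sema7a, which is anchored to the membrane by a lipid and binds Plxnc1, was the one membrane semaphorin that rose, by 0.49 in the hemisphere (adjusted p = 0.0428). Sema7a lost its call without WT hemisphere replicate 2 or 3, WT vermis replicate 2, SmoM2 hemisphere replicate 1 or 2, or any SmoM2 vermis array (0.0521 to 0.16). Sema4g fell by 0.73 in the vermis (adjusted p = 0.00446), with -0.42 in the hemisphere, where it passed on leaving out WT hemisphere replicate 1 (-0.56, 0.0177). Sema6c fell by 0.41 in the vermis (adjusted p = 0.022), though not without WT vermis replicate 3 (0.0732) or SmoM2 vermis replicate 1 (0.106).

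The other 6 membrane semaphorins (Sema4b, Sema4c, Sema4d, Sema4f, Sema6b, Sema6d) passed in neither region, with means over the 12 arrays between 4.57 for Sema6b and 10.40 for Sema6d. Sema6d ranged only from 10.28 to 10.54. Sema4f was lower on every SmoM2 array than on every WT array of its region, at -0.36 in hemisphere (adjusted p = 0.0749) and -0.39 in vermis (adjusted p = 0.0516). Sema4f passed in the hemisphere without WT hemisphere replicate 1 (0.0482), and in the vermis without WT hemisphere replicate 1 or 3 or WT vermis replicate 1 (0.0191 to 0.0438).

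**Figure D2:**
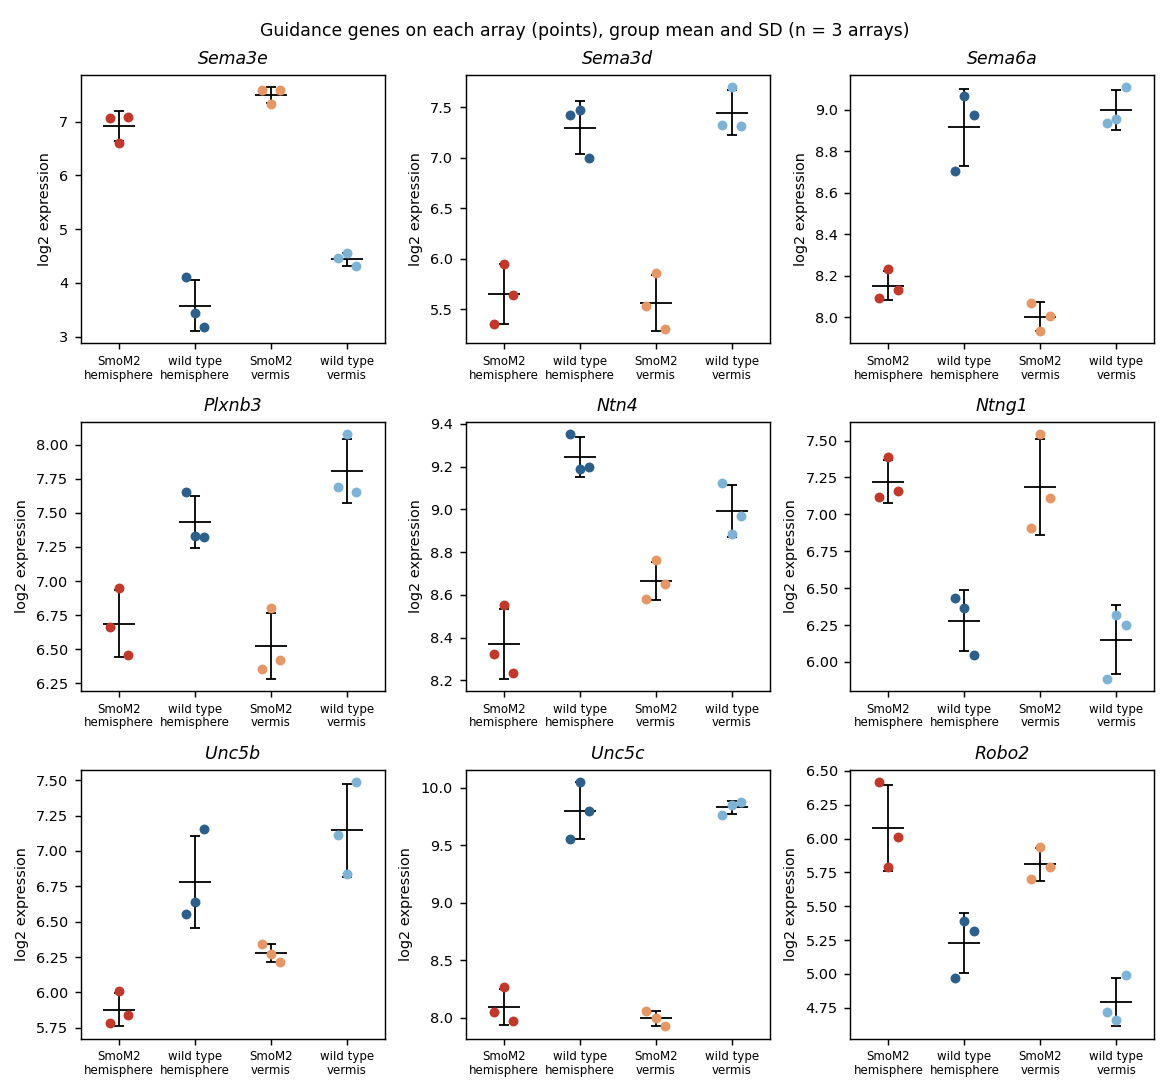
Log2 expression of the 9 guidance genes that passed with a difference of at least 0.8 in a region, on each array (points), with the group mean and SD (n = 3 arrays); axes differ between panels and do not start at 0. Within each region SmoM2 and WT arrays do not overlap in any of the 9 panels.

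Of 10 plexin entries, the hemisphere had 1 that rose and 1 that fell, where 7.62% of all genes rose and 7.18% fell. The vermis had 1 that fell, where 9.46% of all genes fell. Plxnb3, a receptor of Sema5a known from oligodendrocytes, read 6.66, 6.95 and 6.46 in SmoM2 hemisphere, against 7.66, 7.33 and 7.32 in WT hemisphere. The vermis values were 6.35, 6.80 and 6.42 in SmoM2, against 7.69, 8.08 and 7.65 in WT. Groups were separate in both regions. Plxnb3 fell, with a difference of -0.75 in hemisphere (SE 0.16, adjusted p = 0.00721) and -1.28 in vermis (SE 0.16, adjusted p = 0.000101). The summed oligodendrocyte markers were lower on the same arrays, and Mbp made up the largest part of the sums. Mbp was at 10.83 in SmoM2 hemisphere, against 12.22 in WT hemisphere, and 10.83 in SmoM2 vermis, against 12.65 in WT vermis (means, n = 3 each). Of the 6 markers, 4 fell in each region. Pdgfra differed less, at 9.56 against 9.85 in hemisphere and 9.50 against 9.68 in vermis (SmoM2 against WT). So did Cspg4, at 5.92 against 5.99 in hemisphere and 5.79 against 6.00 in vermis. The part of oligodendrocyte lineage RNA in the Plxnb3 difference was not tested.

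Plxna2, the receptor of Sema6a, averaged 7.85 ± 0.07 in SmoM2 hemisphere and 7.53 ± 0.14 in WT hemisphere and rose by 0.32 (adjusted p = 0.0418), while in the vermis the difference was 0.14 and did not pass. The Plxna2 call was lost on leaving out WT hemisphere replicate 1 or 3, WT vermis replicate 3, or any 1 of the 6 SmoM2 arrays (0.0511 to 0.133). Plxnd1, the receptor of Sema3e, differed by 0.36 in the hemisphere and by -0.27 in the vermis, neither of which passed. Without WT hemisphere replicate 3 the hemisphere difference of Plxnd1 was 0.65 (adjusted p = 0.0197). Plxna4 passed in both regions on leaving out WT vermis replicate 1 (-0.39, 0.0365 and -0.58, 0.00794). The other plexins ranged from 5.40 for Plxna1 to 10.37 for Plxnb2, and Plxna4os1 lay below the lower quartile of all 12 arrays. Nrp1 and Nrp2, the co-receptors of class 3 semaphorins, passed in neither region, with hemisphere differences of 0.19 and -0.12 and vermis differences of -0.12 and -0.23.

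Of 6 netrins, Ntng1 rose in both regions and Ntn4 fell in the hemisphere. Ntng1 (netrin-G1) is held at the membrane by a lipid anchor and binds the adhesion protein encoded by Lrrc4c, not Dcc. It read 7.12, 7.39 and 7.16 in SmoM2 hemisphere, against 6.43, 6.36 and 6.05 in WT hemisphere. Vermis values were 6.91, 7.54 and 7.11 in SmoM2, against 5.89, 6.32 and 6.25 in WT. The lowest SmoM2 array was above the highest WT array. Ntng1 rose by 0.94 in the hemisphere (SE 0.17, adjusted p = 0.00167) and by 1.03 in the vermis (SE 0.17, adjusted p = 0.000747).

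Ntn4, a secreted netrin found in basement membranes, read 8.32, 8.55 and 8.24 in SmoM2 hemisphere, against 9.35, 9.19 and 9.20 in WT hemisphere. Vermis arrays read 8.58, 8.76 and 8.65 in SmoM2, against 9.13, 8.89 and 8.97 in WT. SmoM2 arrays were below WT arrays in each region, by a wider gap in the hemisphere. Ntn4 fell by 0.87 in the hemisphere (SE 0.11, adjusted p = 0.000107). The vermis difference was -0.33 (SE 0.11, adjusted p = 0.0569) and passed without WT hemisphere replicate 1 (0.0471) or SmoM2 hemisphere replicate 2 (0.0483). The difference between both SmoM2 effects was -0.55 with an unadjusted p of 0.00371, and its adjusted p was 1.

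Ntn1, the netrin that attracts axons through Dcc, had means of 9.16 in SmoM2 hemisphere, 8.92 in WT hemisphere, 9.36 in SmoM2 vermis and 8.97 in WT vermis, and passed in neither region. In the vermis it was higher on all 3 SmoM2 arrays (0.39, adjusted p = 0.081), and it passed there without WT hemisphere replicate 1 (0.0485) or 2 (0.05 after rounding) or WT vermis replicate 1 (0.0197). Ntn5 did not pass, but did in the hemisphere without WT hemisphere replicate 1 (0.0298) and in the vermis without WT hemisphere replicate 1 or 2 or SmoM2 vermis replicate 3 (0.0218 to 0.0495). Ntn3 was below the lower quartile of every array, so that nothing is known of its level there beyond a low signal. Ntng2 ranged from 3.77 to 4.35 without passing.

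Of the 4 Unc5 netrin receptors, 3 fell in both regions (Unc5b, Unc5c and Unc5d). Of the 6 netrin receptors 4 fell in hemisphere, where 7.18% of all genes fell, and 3 in vermis, where 9.46% fell. None was higher. The hemisphere calls of Unc5d and Neo1 stood close to the threshold and are given below. Unc5c, a repulsive netrin receptor, read 8.05, 8.27 and 7.97 in SmoM2 hemisphere, against 9.56, 10.05 and 9.80 in WT hemisphere. In the vermis the values were 8.06, 8.00 and 7.93 in SmoM2, against 9.76, 9.85 and 9.87 in WT. The 6 SmoM2 arrays were within 0.4 of each other and at least 1 log2 unit below every WT array. Unc5c fell, with a difference of -1.70 in hemisphere (SE 0.12, adjusted p = 6.04e-07) and -1.83 in vermis (SE 0.12, adjusted p = 2.66e-07).

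Unc5b, a netrin receptor best known from blood vessels, read 5.79, 6.01 and 5.84 in SmoM2 hemisphere, against 6.55, 6.64 and 7.15 in WT hemisphere. The vermis values were 6.34, 6.27 and 6.21 in SmoM2, against 7.11, 6.83 and 7.49 in WT. Every SmoM2 array was below every WT array. It fell, with a difference of -0.90 in hemisphere (SE 0.17, adjusted p = 0.00253) and -0.87 in vermis (SE 0.17, adjusted p = 0.00321). The summed level of 6 endothelial markers was 579 to 704 in SmoM2 hemisphere, against 489 to 1023 in WT hemisphere, and 346 to 539 in SmoM2 vermis, against 667 to 850 in WT vermis. None of those 6 markers passed in the hemisphere, and 2 fell in the vermis; their part in the Unc5b difference was not tested.

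Unc5d, which also binds the adhesion proteins Flrt2 and Flrt3, averaged 2.76 ± 0.17 in SmoM2 hemisphere and 3.14 ± 0.13 in WT hemisphere, and 2.94 ± 0.06 in SmoM2 vermis and 3.66 ± 0.17 in WT vermis. It lay below the lower quartile on 9 of 12 arrays. The difference was -0.38 in hemisphere (adjusted p = 0.0469) and -0.72 in vermis (adjusted p = 0.000945). The hemisphere call was lost without WT hemisphere replicate 2 or 3, WT vermis replicate 1, SmoM2 hemisphere replicate 1 or 3, or any SmoM2 vermis array (0.0556 to 0.186). Neo1 (neogenin), a receptor for netrins and for the repulsive guidance molecules, fell by 0.38 in the hemisphere (adjusted p = 0.0449). That call was lost without WT hemisphere replicate 2 or 3, WT vermis replicate 2, or any 1 of the 6 SmoM2 arrays (0.0504 to 0.157), and Neo1 passed in the vermis on leaving out WT hemisphere replicate 3 (-0.33, 0.0336). Dcc, the attractive netrin receptor, stayed above the upper quartile of every array, between 10.34 and 10.98, and differed by 0.27 in hemisphere and -0.05 in vermis without passing. Unc5a ranged from 4.65 to 5.24 and did not pass.

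Robo1 and Robo2, receptors of the Slits, rose in both regions. Robo2 read 6.42, 5.79 and 6.01 in SmoM2 hemisphere, against 4.97, 5.39 and 5.32 in WT hemisphere. In vermis the values were 5.70, 5.94 and 5.79 in SmoM2, against 4.72, 4.66 and 4.99 in WT. The groups did not overlap. Robo2 rose by 0.85 in the hemisphere (SE 0.16, adjusted p = 0.00253) and by 1.02 in the vermis (SE 0.16, adjusted p = 0.000565). Robo1 averaged 9.10 ± 0.16 in SmoM2 hemisphere and 8.34 ± 0.26 in WT hemisphere, and 9.15 ± 0.14 in SmoM2 vermis and 8.42 ± 0.03 in WT vermis, with differences of 0.76 (adjusted p = 0.00138) and 0.73 (adjusted p = 0.00179). The 2 genes are next to each other on chromosome 16 in the RefSeq gene order. Robo4, a receptor of blood vessels, and Robo3, which lie next to each other on chromosome 9, did not pass; Robo4 passed in the vermis without WT vermis replicate 1 (-0.58, 0.0466).

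Of the Slit ligands, Slit3 rose in the hemisphere, to 4.75 ± 0.05 in SmoM2, against 3.97 ± 0.35 in WT (0.78, adjusted p = 0.00331). In the vermis its difference was 0.34, which did not pass except on leaving out WT hemisphere replicate 2 (0.0486). Slit2 ranged between 6.26 and 6.72 on the 12 arrays and differed by 0.04 in the hemisphere and 0.02 in the vermis. Slit1 differed by -0.23 in the hemisphere, where it passed without WT hemisphere replicate 1 (-0.33, 0.0485).

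Most guidance genes were represented by several probe sets, 37 of the 51, and these mostly gave the same direction. Of 30 further probe sets of members that passed in the hemisphere, 25 had the same sign, 13 passed and none passed the opposite way, when all 45101 probe sets were tested; in the vermis the figures were 19 of 20, and 11 passed. All 4 Sema3e probe sets rose, by 1.12 to 3.34 in hemisphere and by 1.46 to 3.07 in the vermis. The second probe sets of Unc5c, Unc5b and Plxnb3 also fell in both regions, Unc5c with -1.54 and -1.72. A dimmer probe set of Ntng1 (1449286_at) rose by 1.99 in the hemisphere and 2.54 in the vermis, more than the one that stood for the gene. For Robo1 the 2 dimmer probe sets differed by -0.09 and 0.04 in the hemisphere and did not pass. For Plxna2, 1429772_at rose by 0.70 (adjusted p = 0.006) and 1451753_at by 0.49 (adjusted p = 0.0256) in the hemisphere. In that test the brightest Plxna2 probe set (adjusted p = 0.0558) and 1453286_at (adjusted p = 0.121) did not pass there.

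For some genes that had not passed in a region, probe sets disagreed or a dimmer one passed. For Sema4d, a ligand of Plxnb1, the brightest probe set differed by 0.12 in the hemisphere and 0.13 in the vermis. Another Sema4d probe set (1434596_at) fell to 4.99 in SmoM2 hemisphere, against 6.20 in WT hemisphere (-1.22, adjusted p = 0.000376), and to 5.12 in SmoM2 vermis, against 6.59 in WT vermis (-1.47, adjusted p = 6.75e-05). Plxnc1, the receptor of Sema7a, had a brightest probe set at 9.48 to 9.68 on all arrays, and 2 dimmer ones that rose in the hemisphere by 0.99 (adjusted p = 0.0264) and 0.80 (adjusted p = 0.00862). The dimmer Sema3a probe set that rose in the vermis is given above. Which transcripts these probe sets read was not examined.

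**Figure D3:**
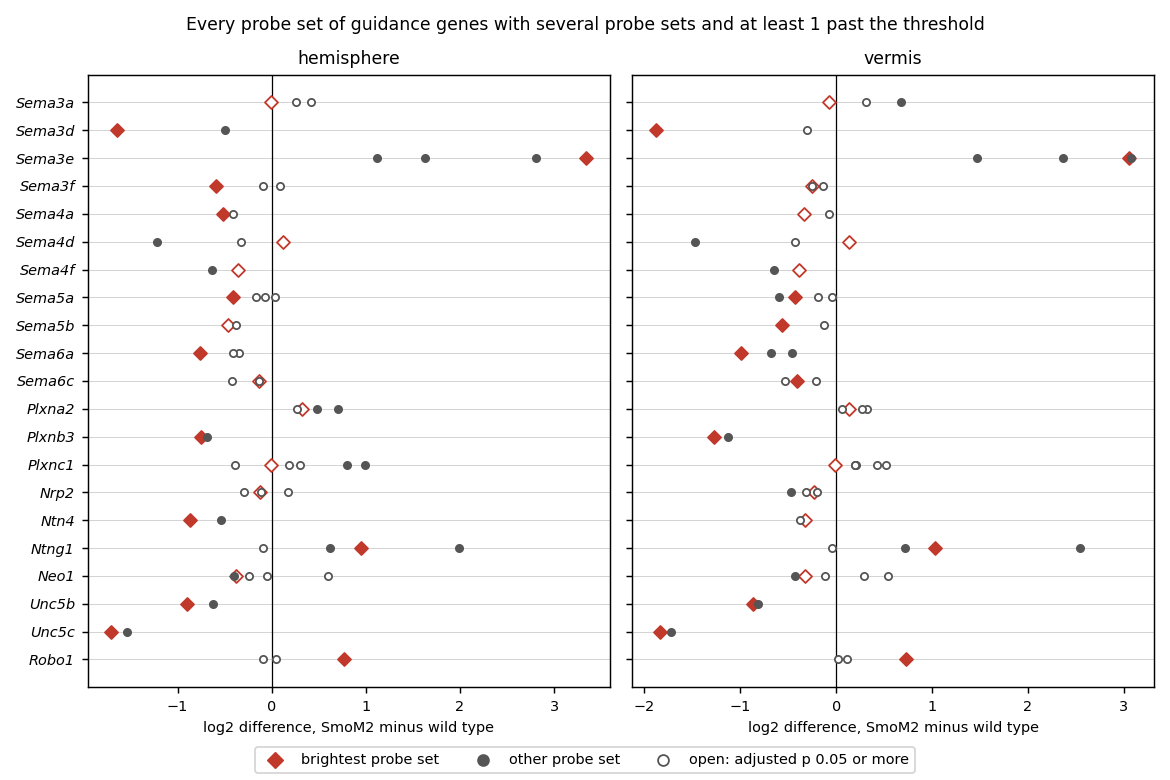
Log2 difference, SmoM2 minus WT, of every probe set of the 21 guidance genes with several probe sets of which at least 1 passed; diamonds are the brightest probe set of a gene, circles the others, and open symbols did not pass (p adjusted over all probe sets). Sema3e, Unc5c and Plxnb3 are all on one side of 0, and Sema4d and Plxnc1 are spread.

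Between hemisphere and vermis no guidance gene passed in either genotype in the main model, which does not pair the arrays. In WT, 0 of 51 members passed between hemisphere and vermis (0.187% of all genes did), with 9 at an unadjusted p under 0.05 (6.32% of all genes). The smallest adjusted p values belonged to Sema3e, at 3.57 ± 0.47 in hemisphere and 4.44 ± 0.12 in vermis (-0.87, adjusted p = 0.136), and Unc5d, at 3.14 ± 0.13 in hemisphere and 3.66 ± 0.17 in vermis (-0.52, adjusted p = 0.143). Same-numbered hemisphere and vermis arrays of a genotype deviated together, more in WT than in SmoM2. Further fits therefore treated them as pairs, though the sample titles name no shared pool. With that pairing as a random block both genes passed in WT (Sema3e adjusted p = 0.0199, Unc5d 0.0253); with the pairing as a fixed block neither did (0.0555 and 0.0965). Sema3e also passed without WT hemisphere replicate 1, the highest of its group (-1.13, adjusted p = 0.00902). In SmoM2, 0 of 51 members passed between regions, against 0.0605% of all genes, and 5 had an unadjusted p under 0.05 (3.63% of all genes); Sema3e was again lower in hemisphere, at 6.91 ± 0.28, than in vermis, at 7.50 ± 0.15 (-0.58, unadjusted p = 0.0107, adjusted p = 0.976).

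No member had a SmoM2 effect that passed as different between regions, where 0% of all genes passed; 4 members had an unadjusted p under 0.05 (3.1% of all genes). They were Ntn4, given above, Plxnb3 (0.53), Plxnd1 (0.64) and Robo4 (0.55), each as the hemisphere effect minus the vermis effect, with adjusted p values of 1. A call in 1 region alone, as for Ntn4, Slit3, Sema3f and Sema4g, is therefore not shown to be a difference between regions.

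**Figure D4:**
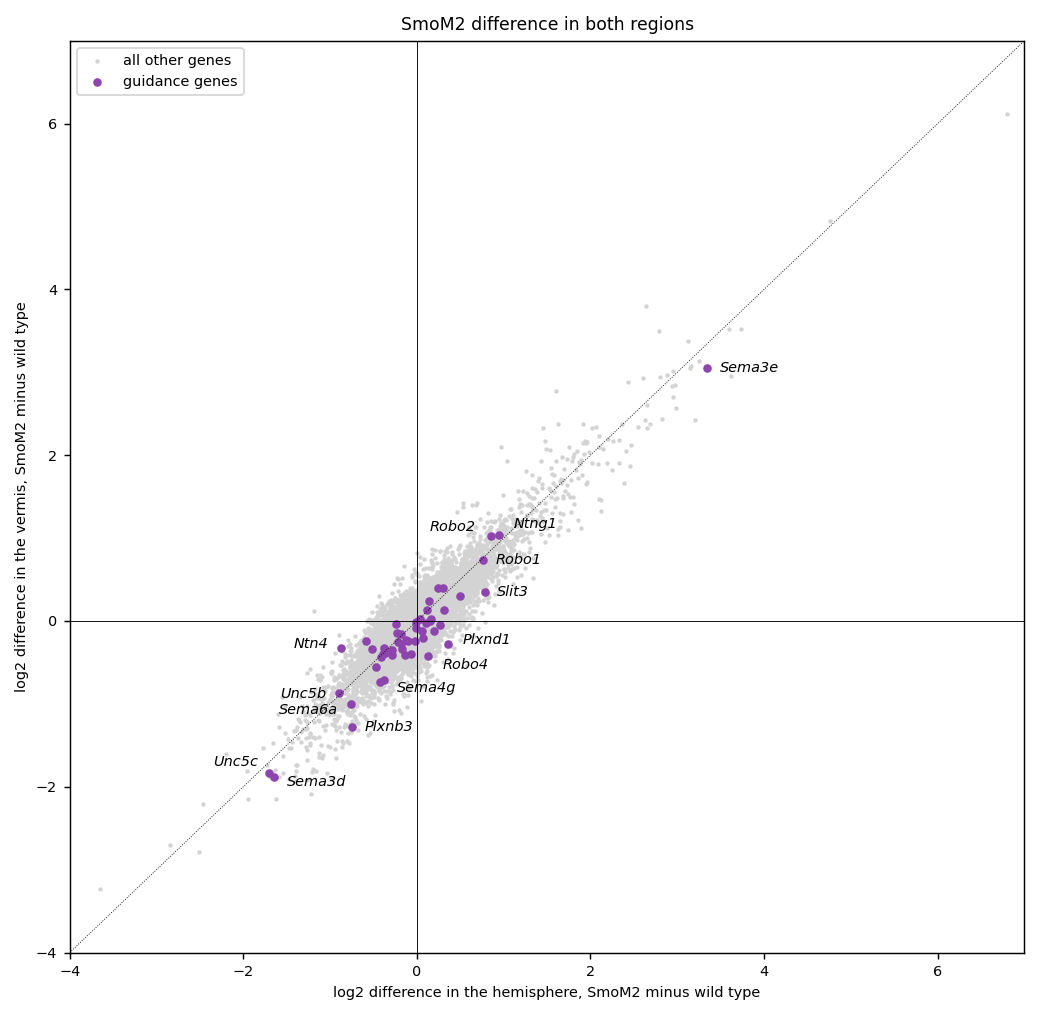
Log2 difference, SmoM2 minus WT, in the hemisphere (horizontal) and in the vermis (vertical) for the 51 guidance genes (purple) and all other genes (grey); the dotted line marks equal differences. Sema3e, Unc5c and Sema3d lie near the line far from 0, and Ntn4, Plxnd1 and Robo4 lie off it.

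Other genes of these pathways were counted from a list of 62, of which 59 were measured. SmoM2 hemisphere had 17 of them higher and 9 lower, where 7.62% of all genes were higher and 7.18% lower. SmoM2 vermis had 14 higher and 11 lower, where 7.56% of all genes were higher and 9.46% lower. The list's median difference was 0.09 and 0.07. Between regions 0 passed, where 0.187% of all genes did in WT and 0.0605% in SmoM2. In the interaction 0 passed, as for all genes. Of 18 other ligands and co-receptors, the hemisphere had 8 higher and 4 lower, the vermis 8 higher and 5 lower. Nell2, a ligand of Robo3, rose by 1.30 in hemisphere (adjusted p = 1.79e-06) and 0.88 in vermis (adjusted p = 7.12e-05). Met, a partner of plexin B receptors, rose by 1.20 in hemisphere (adjusted p = 2.89e-05) and 1.07 in vermis (adjusted p = 8.06e-05). Draxin, which binds Dcc and netrin, rose by 1.00 in hemisphere (adjusted p = 0.00123) and 1.15 in vermis (adjusted p = 0.000368). Rgma, a ligand of Neo1, rose by 0.85 in hemisphere (adjusted p = 0.0232) and 1.11 in vermis (adjusted p = 0.0046), and lost its hemisphere call without WT hemisphere replicate 2 or SmoM2 hemisphere replicate 1 or 2 (0.0705 to 0.1). The adhesion protein L1cam, a co-receptor for Sema3a, fell, with a difference of -1.13 in hemisphere (adjusted p = 0.000948) and -1.40 in vermis (adjusted p = 0.000142). Lrrc4, the receptor of netrin-G2, fell, with a difference of -0.93 in hemisphere (adjusted p = 0.000932) and -1.32 in vermis (adjusted p = 4.55e-05).

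Inside the cell, 41 signalling genes were measured. The hemisphere had 9 higher and 5 lower, where 7.62% of all genes were higher and 7.18% lower. The vermis had 6 higher and 6 lower, where 7.56% of all genes were higher and 9.46% lower. Dpysl4 and Dpysl3, members of the collapsin response mediator family that carries semaphorin signals to the cytoskeleton, moved in opposite directions. Dpysl4 rose by 1.92 in hemisphere (adjusted p = 6.98e-07) and 2.01 in vermis (adjusted p = 4.41e-07), where Dpysl3 fell (-0.92, adjusted p = 6.75e-05, and -0.999, adjusted p = 3.14e-05). Mical1, an actin-oxidising enzyme that binds plexin A receptors, rose by 1.56 in hemisphere (adjusted p = 8.97e-06) and 1.77 in vermis (adjusted p = 2.58e-06). Pak3, a kinase downstream of Rac, rose by 1.94 in hemisphere (adjusted p = 6.04e-07) and 1.65 in vermis (adjusted p = 2.62e-06). Srgap3, an inhibitor of Rac that binds Robo receptors, fell, with a difference of -0.70 in hemisphere (adjusted p = 0.000701) and -0.94 in vermis (adjusted p = 5.04e-05). Of the 7 neuronal markers given above, 4 fell in hemisphere and 5 in vermis, and their part was not tested.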

How the data were processed

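RNA was hybridised to 12 Affymetrix mouse arrays, 3 for each of 4 groups taken from the sample titles. The deposited values are log2 expression per probe set, which the authors made with Partek and RMA, per the submitters' processing notes; the sources used here give no versions or filters. These values carry no detection call, and the number of arrays limits precision. No test compared the levels of different probe sets, though the marker sums add them and some levels are ranked. The platform annotation gave the gene names (34958 with 1 symbol, 932 with several, 9211 unnamed; 0 symbols changed on updating), and the brightest was kept for each of 18194 genes. The values were not normalized again.

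All contrasts were fitted by limma (version 3.58.1, R 4.3.3; lmFit, eBayes) in 1 model of the 4 group means with 8 residual degrees of freedom, two-sided, with Benjamini-Hochberg adjustment over all genes of a contrast and a threshold of 0.05. Intervals and SE come from that model, and p-values measure the spread between the pools. The model was tested on simulated data first. The members and gene lists were chosen with earlier results of these data known. Members that passed with a difference of at least 0.8 are given on every array; for partner genes up to 5 each way are named in a contrast, of which 1 is not reported here. Same-numbered arrays deviated together between hemisphere and vermis within a genotype (correlations of 0.337 to 0.527 in WT and 0.142 to 0.275 in SmoM2). Between genotypes the correlations ran from -0.224 to 0.177, a range that overlaps the one in SmoM2 but not the one in WT. Region contrasts were therefore also fitted with the same-numbered pair of a genotype as a block. The sample titles give only a replicate number and do not say that a pair shares a pool of mice. Promoter windows came from RefSeq (GRCm38.p6). Alternatives covered blocks, left-out arrays, probe set choice, normalization, a level filter, separate fits and unmoderated variance. The fixed pair block and the test of every probe set were chosen after seeing the data.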

Additional observations from a re-analysis of the deposited data

How the results depend on the processing

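Of the 19 members called in the hemisphere 10 passed under every alternative that tested them, and 11 of the 14 called in the vermis. Slit3 in the hemisphere and Unc5d in the vermis are among these, but the level filter removed both, so that alternative did not test them. Of the calls, 9 and 3 were lost in at least 1 alternative, and 6 and 13 others were gained with the same sign in at least 1. A further 2 in the hemisphere and 1 in the vermis passed with the sign turned, as given below. Leaving out single arrays gave 12 to 20 members in the hemisphere, 13 to 19 in the vermis, 0 to 1 between WT regions, and 0 between SmoM2 regions and in the interaction. The count between WT regions was 2 with the same-numbered pair as a random block, with 198 genes called in all. It was 0 with the pair as a fixed block, with 49. With the replicate number as a block over all groups, though same-numbered SmoM2 and WT arrays share only a number, 20 members passed in hemisphere and 16 in vermis, and 10 of 12 arrays correlated best with their own number; the block changed no other count of members from 0. When each gene was given the mean over its probe sets, 3 values turned and passed: Plxnc1 in the hemisphere (0.31, adjusted p = 0.0492), and Sema4d in the hemisphere (-0.47, adjusted p = 0.0381) and vermis (-0.59, adjusted p = 0.0123). Robo1 lost its hemisphere call with that setting only (0.24, adjusted p = 0.0687), and Neo1, Sema3f and Sema5a lost theirs too (0.686, 0.203 and 0.306). Leave-one-out counts of the partner list were 21 to 26 in the hemisphere and 22 to 27 in the vermis. The interaction has no fit over only the groups compared. Array signal limits Ntn3, Plxna4os1 and Unc5d, which lay at or below the lower quartile on most arrays.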
